A study of Mus musculus with 6 samples.

Results

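Platelets carry their cargo in alpha granules and are shed from proplatelets, the long extensions that megakaryocytes push out. The genes described here are 9 names taken from those steps: the alpha granule proteins Pf4, Ppbp, F5 and Serpine2, the granule genes Rab27b and Nbeal2, the tubulin Tubb1, the signalling protein Plek and the transcriptional cofactor Zfpm1. They were chosen by name, with earlier results of these data known, and all probe sets annotated to them were used. Of the 9, 8 had at least 1 probe set, with 16 probe sets in all among 45037 tested, and they are 8 of 18193 genes. Serpine2 was not analysed here.

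RNA came from femurs of 3 male C57BL/6 mice aged 8 weeks, each given intraperitoneal saline. Central marrow RNA came from cells flushed out of the shaft after the metaphyses had been cut off, then pelleted and lysed. Endosteal RNA came from what was lysed with Trizol inside the flushed shaft. There were 3 arrays per region, lettered A, B and C in each. The comparison asked how expression at the inner bone surface differed from that of the flushed marrow.

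Megakaryocytes are large polyploid cells that lie in the marrow, mostly beside sinusoids. They fill alpha granules partly with proteins they make themselves, such as the chemokines platelet factor 4 and pro-platelet basic protein, and partly with proteins taken up from plasma. Proplatelets are driven by microtubules that contain a beta tubulin largely restricted to this lineage, and the granules travel along those microtubules into the forming platelets.

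Bone, muscle and stromal transcripts marked the endosteal RNA. The summed signal of 8 bone genes was 1761 to 2472 on central and 77741 to 88132 on endosteal arrays, and that of 10 muscle genes was 767 to 1181 and 72012 to 143877. Of these, 7 of 8 bone and 10 of 10 muscle genes were called higher in endosteal RNA, among them Col1a2 at 6.10, Col1a1 at 6.34, Myl1 at 8.75 and Acta1 at 6.55 on the log2 scale. Every array had a mean signal of 500.003 once the top and bottom 2% were trimmed, and the median signal was 97.2 to 106 in central and 120 to 131 in endosteal arrays.

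The start sites of 4 members are shown because they span the members' changes: Pf4 and Ppbp, which are neighbours, Tubb1, and Zfpm1, the lowest. Each sequence runs from 250 bases before the start to 50 bases from the start on, 5′ to 3′ on the gene's own strand, from RefSeq on GRCm38.p6. Capitals mark exact matches, on either strand, to a motif bound by GATA factors, spelled AGATAA. They also mark the motif AGGAAG, which ETS factors bind, and the TATA box letters TATAAA. Pf4 lies at chr5:90772185-90772484, Ppbp at chr5:90768268-90768567, Tubb1 at chr2:174450345-174450644 and Zfpm1 at chr8:122281891-122282190, all on the + strand.
Pf4: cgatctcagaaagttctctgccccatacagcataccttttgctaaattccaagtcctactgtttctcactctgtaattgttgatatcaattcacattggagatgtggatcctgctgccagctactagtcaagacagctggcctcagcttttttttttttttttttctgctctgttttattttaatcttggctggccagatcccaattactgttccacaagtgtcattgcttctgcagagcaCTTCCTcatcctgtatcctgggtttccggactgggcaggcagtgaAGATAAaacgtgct
Ppbp: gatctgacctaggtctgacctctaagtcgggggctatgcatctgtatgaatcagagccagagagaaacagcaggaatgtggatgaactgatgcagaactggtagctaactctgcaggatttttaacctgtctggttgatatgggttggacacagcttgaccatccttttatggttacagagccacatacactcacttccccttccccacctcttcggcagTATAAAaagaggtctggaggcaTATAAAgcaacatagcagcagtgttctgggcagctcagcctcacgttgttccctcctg
Tubb1: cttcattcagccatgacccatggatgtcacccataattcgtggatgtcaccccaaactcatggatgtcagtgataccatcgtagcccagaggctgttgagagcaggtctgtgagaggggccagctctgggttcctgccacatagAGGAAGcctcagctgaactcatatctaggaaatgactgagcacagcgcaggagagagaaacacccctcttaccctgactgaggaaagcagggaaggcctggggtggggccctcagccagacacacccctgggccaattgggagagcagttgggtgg
Zfpm1: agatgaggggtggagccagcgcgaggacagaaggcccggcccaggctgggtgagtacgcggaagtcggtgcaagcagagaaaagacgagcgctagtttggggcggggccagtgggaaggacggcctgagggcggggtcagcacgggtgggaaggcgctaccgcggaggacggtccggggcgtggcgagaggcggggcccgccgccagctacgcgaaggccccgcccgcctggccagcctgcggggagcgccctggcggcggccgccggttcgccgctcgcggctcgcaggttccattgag

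The Pf4 window held 1 AGATAA, from position 37, and 1 CTTCCT, the other strand of AGGAAG, from position -9, with the first base of the gene counted as 1. The Ppbp window held TATAAA from -30 and from -8, and the Tubb1 window held AGGAAG from -106. No match was found in the Zfpm1 window, which was 73.7% G and C, against 43.3% for Pf4, 48.7% for Ppbp and 56.0% for Tubb1. Of the other members with a window read here, F5 held the ETS motif from -124, Nbeal2 held it from -9, and Plek held none of the motifs. No base lay in 2 motifs. Of 32851 windows of 300 bases, 11.2% held AGATAA, 35.4% held AGGAAG and 13.6% held TATAAA, so a match is common and describes only these letters. Ppbp and Pf4 lie on the same strand with starts 3917 bases apart.

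Signals are the authors' deposited linear probe set intensities. Log2 changes are endosteal minus central on log2(signal + 16), fitted with limma with region as the only term, and a gene is called when its Benjamini-Hochberg adjusted p over all 18193 genes is below 0.05. Ratios are of mean signals. Intervals are 95% and unadjusted. Among all genes, 7.92% were called higher and 4.02% lower. By limma at an unadjusted p below 0.05, 3253 of the 18193 genes were higher and 2061 lower. Of the 8 members, 2 were called higher, 1 lower and 5 were not called; the median change was 0.66, against 0.10 over all genes. All endosteal arrays lay above all central arrays for 5 members, below for 2 and overlapped for 1; for all genes the shares were 22.3% above and 15.4% below. In bulk RNA, more cells of a type and more RNA per cell cannot be told apart. The labels do not say that 1 letter is 1 mouse, and p-values measure only the spread between these arrays.

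**Figure D1:**
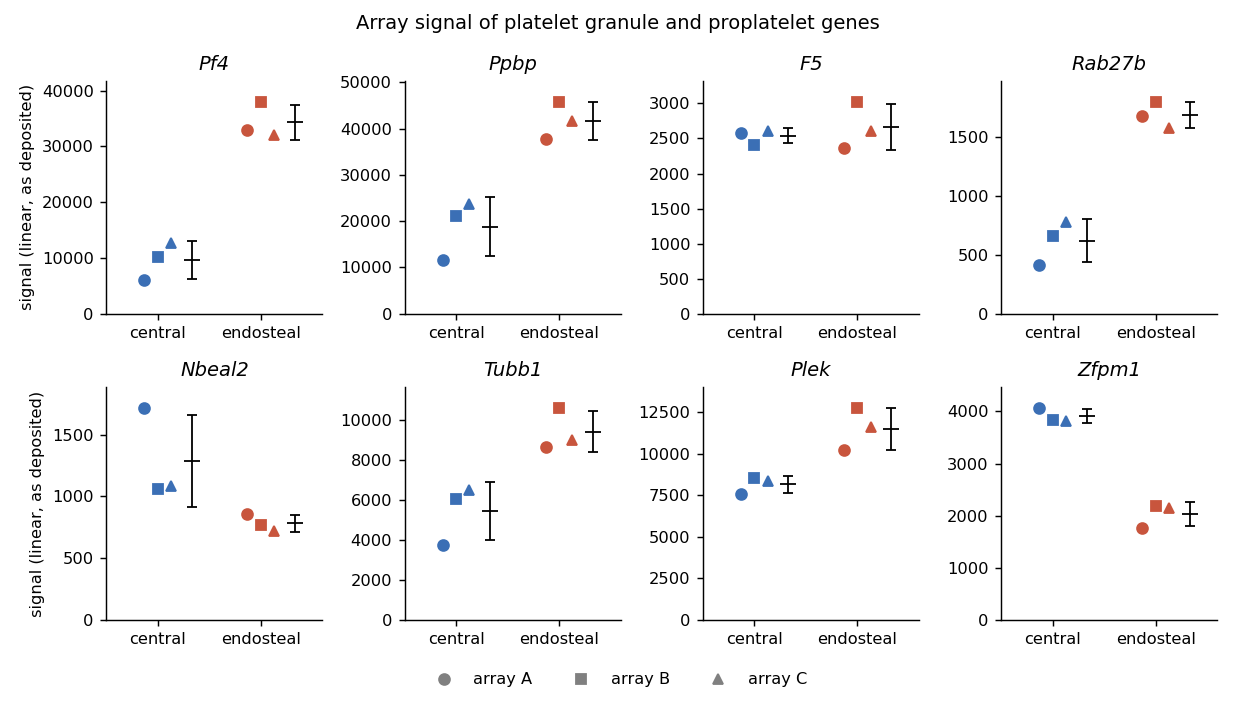
Deposited linear signal of each of the 8 measured members, with a separate vertical axis from 0 for each gene, 3 central and 3 endosteal arrays as points, and the mean and SD of each region. Pf4, Ppbp, Rab27b, Tubb1 and Plek lie higher on every endosteal array, Nbeal2 and Zfpm1 lie lower on every one, and F5 overlaps.

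Pf4 gave the largest change of the 8. Pf4, platelet factor 4, read 6070, 10090 and 12741 on the central arrays (in the order A, B, C, as for every gene) and 32950, 37919 and 32013 on the endosteal ones. Its lowest endosteal value was above its highest central one. The means were 9633 ± 3359 and 34294 ± 3174 (SD, n = 3 each), a ratio of 3.56, and the log2 change was 1.89 (SE 0.29, interval 1.17 to 2.61, limma adjusted p = 0.0183). Pf4 therefore rose. The call was lost without central B (limma adjusted p = 0.0631), endosteal A (0.0547) or endosteal B (0.0599), and with the letter as a block (0.0696).

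Ppbp encodes the precursor of the neutrophil-attracting chemokine that platelets release. It read 11713, 21058 and 23737 on central and 37685, 45737 and 41599 on endosteal arrays, again without overlap. The means were 18836 ± 6313 and 41674 ± 4027 (SD, n = 3 each), a ratio of 2.21. The change of 1.20 (SE 0.29, interval 0.48 to 1.93) was not called (limma adjusted p = 0.0542). With the letter as a random block it was called (limma adjusted p = 0.0416), and without central A the change was 0.89.

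F5 encodes coagulation factor V, which platelets hold in alpha granules and which mouse megakaryocytes make. It read 2585, 2414 and 2611 on central and 2360, 3018 and 2609 on endosteal arrays, so the regions overlapped. Means were 2537 ± 107 and 2662 ± 332 (SD, n = 3 each), and the change was 0.06 (SE 0.14, interval -0.29 to 0.41, limma adjusted p = 0.807). Its other probe set gave 0.12. On the deposited scaling the interval excludes the changes seen in Pf4 and Ppbp, but it does not show that F5 was the same in both regions. With median centring the change was -0.20, and with poly-A scaling it was 1.08 and called (limma adjusted p = 0.00550).

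Of the genes for granule handling, Rab27b rose and Nbeal2 was not called. Rab27b encodes a small GTPase that tethers platelet granules and supports their release. It read 417, 664 and 777 on central and 1684, 1797 and 1581 on endosteal arrays, with no overlap. The means were 619 ± 184 and 1687 ± 108 (SD, n = 3 each), a ratio of 2.72, and the change was 1.47 (SE 0.25, interval 0.85 to 2.08, limma adjusted p = 0.0229). The call was lost without central B (limma adjusted p = 0.0702), endosteal A (0.0645), endosteal B (0.0698) or endosteal C (0.0564), and with the letter as a block (0.0791).

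Nbeal2 encodes a scaffold protein whose loss causes grey platelet syndrome, in which alpha granules are missing. It read 1713, 1058 and 1084 on central and 854, 765 and 723 on endosteal arrays, every endosteal value below every central one. The means were 1285 ± 371 and 781 ± 67.3 (SD, n = 3 each), a ratio of 0.608. The change of -0.67 (SE 0.22, interval -1.23 to -0.12, limma adjusted p = 0.112) was not called, and it was 0.33 when scaled to the poly-A controls. With the mean of its probe sets it was -0.85 and called (limma adjusted p = 0.0470), and with an intensity trend or among genes above the median level -0.67 was called.

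Tubb1 encodes the beta tubulin of the platelet marginal band. It read 3771, 6065 and 6501 on central and 8671, 10594 and 8985 on endosteal arrays, with no overlap. The means were 5446 ± 1467 and 9417 ± 1032 (SD, n = 3 each), a ratio of 1.73. The change of 0.82 (SE 0.24, interval 0.22 to 1.43, limma adjusted p = 0.0868) was not called. It was called with an intensity trend (limma adjusted p = 0.00860), among genes above the median level (0.0187) and with poly-A scaling (0.00490).

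Plek encodes pleckstrin, a main substrate of protein kinase C in platelets that is also made by neutrophils and monocytes. Its brightest probe set read 7579, 8523 and 8390 on central and 10205, 12740 and 11610 on endosteal arrays, with no overlap. Means were 8164 ± 511 and 11518 ± 1270 (SD, n = 3 each), a ratio of 1.41, and the change of 0.49 (SE 0.14, interval 0.14 to 0.84, limma adjusted p = 0.0792) was not called. Its choice of probe set mattered: the mean of all its probe sets gave 0.80, which was called (limma adjusted p = 0.0300).

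Zfpm1 encodes FOG1, the partner of GATA1 without which megakaryocytes do not form. It read 4061, 3845 and 3820 on central and 1758, 2176 and 2137 on endosteal arrays, every endosteal value below every central one. The means were 3908 ± 132 and 2024 ± 231 (SD, n = 3 each), a ratio of 0.518. Zfpm1 fell by 0.95 on the log2 scale (SE 0.14, limma adjusted p = 0.0157), although after scaling to the poly-A controls its change was 0.069. The call was lost without central A (limma adjusted p = 0.0584), central B (0.0631) or central C (0.0563), and with the letter as a block (0.0783).

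Fitted over all 45037 probe sets, 6 of the members' 16 were called higher and 2 lower. Over all probe sets, 3.21% were called higher and 1.29% lower. Endosteal arrays lay above the central ones without overlap for 9 of the 16 and below for 4, against 17.8% and 13.6% over all probe sets. The median change of the 16 was 0.66, against 0.08 over all, and the range was -1.02 to 1.89. With any 1 array left out, 0 or 1 of the 16 was called higher and 0 lower, by limma; at an unadjusted p below 0.05 there were 7 to 9 higher and 3 or 4 lower. The single call was made without central C. Over all 45037 probe sets, 210 to 868 were called higher and 5 to 181 lower with 1 array left out. At an unadjusted p below 0.05 these were 4543 to 6038 higher and 3057 to 4122 lower, so calls became few over the whole array.

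Probe sets of a gene mostly pointed the same way. Of the 4 Rab27b probe sets, 3 gave 1.56, 1.52 and 1.47 and were called, while 1443764_x_at gave 0.14 (limma adjusted p = 0.680) with overlapping regions; its suffix marks probes that can match other transcripts. The Plek probe sets gave 1.05 and 0.87, both called, and 0.49, not called. For 1417523_at of Plek, the signal was 1391, 1458 and 1513 on central and 2659, 3224 and 3209 on endosteal arrays. Both Zfpm1 probe sets were called lower, at -0.92 and -0.95, but gave 0.070 and 0.069 when scaled to poly-A controls. The Nbeal2 probe sets gave -0.67 and -1.02, neither called.

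**Figure D2:**
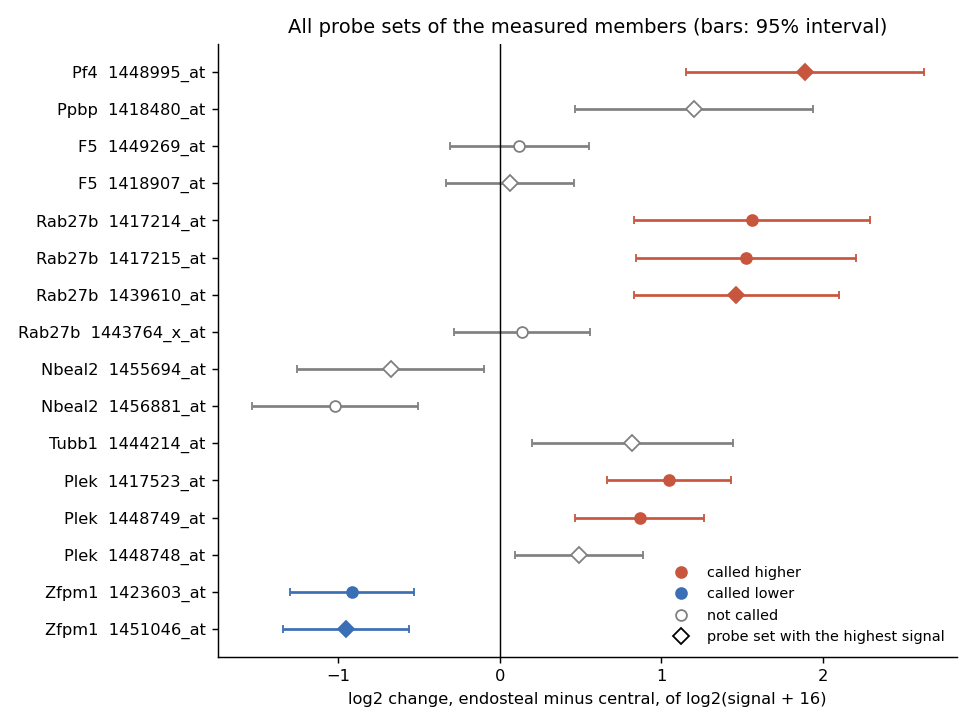
Log2 change of each of the 16 probe sets, endosteal minus central, on log2(signal + 16) of the signals as deposited, with the 95% interval from the fit over all 45037 probe sets. The 3 called Rab27b probe sets lie between 1.47 and 1.56, the 2 called Plek ones at 0.87 and 1.05, and both Zfpm1 ones at -0.92 and -0.95.

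The central arrays differed among themselves in the same members. On central A, Pf4 lay 0.60 below its region mean on the log2 scale, Ppbp 0.62, Rab27b 0.51 and Tubb1 0.49, whereas Nbeal2 lay 0.45 above it. The 12 megakaryocyte surface genes were 0.36 lower on that array too. The spread between central arrays was 1.07 for Pf4, 1.02 for Ppbp, 0.87 for Rab27b and 0.78 for Tubb1, against a median of 0.43 over all genes. It was 0.17 for Plek, 0.11 for F5 and 0.09 for Zfpm1. In endosteal RNA, where the median gene spread by 0.53, the members spread by 0.18 to 0.35. Both medians are over all genes, dim ones included, whereas all 8 members were above the median level, so the groups are unlike. Of all genes, 40.7% had their lowest central value on array A. Without central A, Pf4 changed by 1.59 (limma adjusted p = 0.0290) and Rab27b by 1.21 (limma adjusted p = 0.0341).

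**Figure D3:**
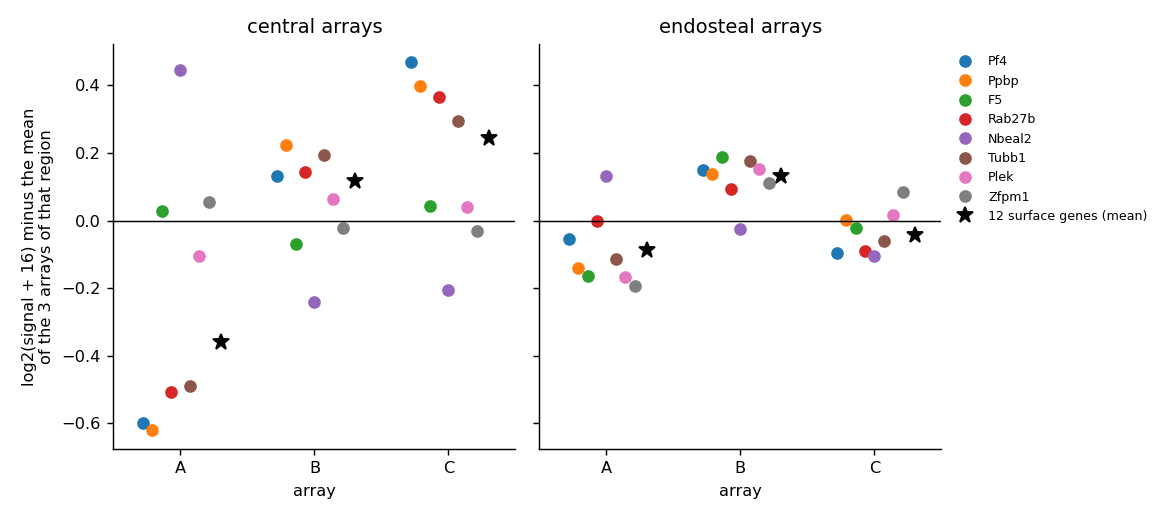
Deviation of each array from its own region mean for the 8 members and the 12 megakaryocyte surface genes together, on log2(signal + 16). On central A, Pf4, Ppbp, Rab27b and Tubb1 lie 0.49 to 0.62 below their mean, and Nbeal2 lies 0.45 above.

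Surface receptors of megakaryocytes and platelets were higher as well. Of 12 measured, 8 were called higher and 0 lower by limma, with 12 higher and 0 lower at an unadjusted p below 0.05. Every one had all endosteal arrays above all central ones, and the median was 1.00 over a range of 0.57 to 1.75. Gp6, the collagen receptor, changed by 1.75, Gp1bb by 1.43 and Cd9 by 0.85 (limma adjusted p = 0.0139); Clec1b gave 1.15 and was not called (limma adjusted p = 0.0801). Without 1 array, 2 to 5 of the 12 were called, and 2 without central B or endosteal B. With the letter as a block limma called 0 of the 12, with 12 higher at an unadjusted p below 0.05. Over all 18193 genes the block called 143 higher and 6 lower, and leaving out 1 array 549 to 928 higher. None had a mean signal below 16 in either region. Their summed signal was 17174 to 26908 on central and 43458 to 50321 on endosteal arrays.

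Set against the mean of those 12 genes on the same array, which was 1.08 higher in endosteal RNA, the members separated. The change of Pf4 was 0.81 larger than that of the surface genes and that of Rab27b 0.39 larger, each without overlap between regions. Ppbp differed by 0.12 with overlapping regions (exact permutation p = 0.6, two-sided, n = 3 each). The differences were -0.26 for Tubb1, -0.59 for Plek, -1.02 for F5, -1.75 for Nbeal2 and -2.03 for Zfpm1. For those 7 the two-sided exact permutation p was 0.1, the smallest that 3 against 3 arrays allow, so none could pass 0.05. A factor applied to a whole array largely cancels in these 8 comparisons. Each used only the brightest probe set of a gene. With the mean of all its probe sets Rab27b changed by 1.17 and Plek by 0.80, nearer to the 1.08 of the surface genes. Nbeal2, at -0.85, lay further from it. The gaps for these genes therefore depended on the probe sets used.

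**Figure D4:**
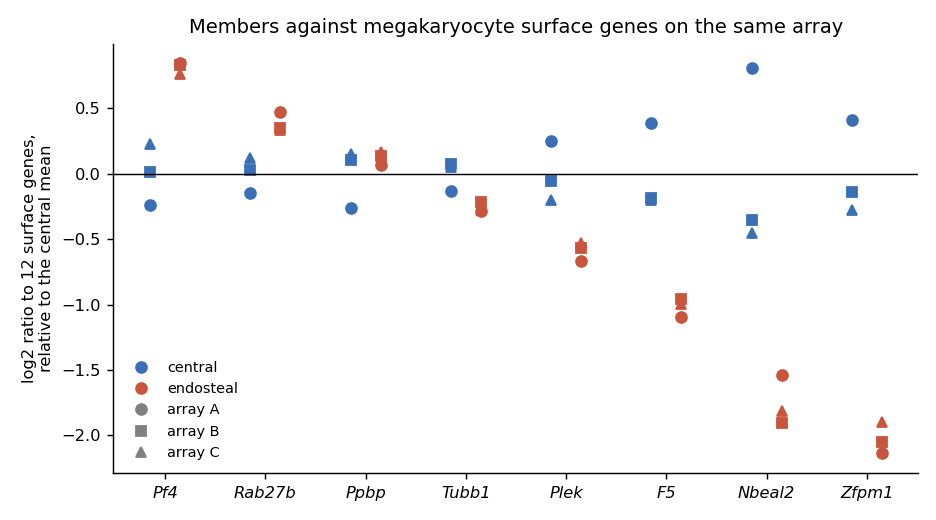
Log2 signal of each member's brightest probe set minus the mean of 12 megakaryocyte surface genes on the same array, relative to the central mean. The 3 central and 3 endosteal arrays are shown as points. Every endosteal point lies above every central one for Pf4 and Rab27b and below for Tubb1, Plek, F5, Nbeal2 and Zfpm1, with endosteal means from 0.81 for Pf4 to -2.03 for Zfpm1.

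Other alpha granule cargo was mostly higher or not called. Of 16 genes, 8 were called higher and 1 lower, with a median change of 1.17 against 0.10 over all genes. Sparc, the matrix protein osteonectin, which bone cells make in quantity as well as megakaryocytes, went from 645 to 18731, a change of 4.82 (limma adjusted p = 0.00172). Gas6 changed by 2.48, Mmrn1 by 1.75 and Clu by 1.66, and all passed the test. With the mean of all probe sets of a gene, Gas6 was 1.28 (limma adjusted p = 0.103) and Mmrn1 1.37 (limma adjusted p = 0.0628), neither called. The von Willebrand factor gene Vwf, also made by endothelium, rose by 1.36. Tgfb1 fell by 1.12 on the log2 scale as deposited. With poly-A scaling, 13 of the 16 were called higher and 0 lower, against 10531 of 18193 genes higher, and the list median was 2.15. Tgfb1 was thus not called lower there, nor with the letter as a block. Without central B, 1 of the 16 was called higher, and with the letter as a block 1. Over all 18193 genes these called 549 and 143 higher.

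Of 26 genes of granule formation and release, 2 were called higher and 1 lower as deposited, and the median was -0.01. These counts were near the shares over all genes, 7.92% higher and 4.02% lower, so the list did not stand out. Median centring gave 1 higher and 4 lower, and poly-A scaling gave 22 higher and 0 lower with a median of 1.00. Over all 18193 genes the counts were 951 and 1786, and 10531 and 46 with a median of 0.97. Slc35d3, a dense granule gene, rose by 1.34 (limma adjusted p = 0.0179), and Rab38, which serves lysosome-related organelles, by 0.73 (limma adjusted p = 0.0253). Unc13d, which primes granules for release, fell by 0.64 on the log2 scale (limma adjusted p = 0.0396), but gave 0.37 after scaling to the poly-A controls. With any 1 array left out, 0 or 1 was called higher and 0 lower by limma, with 3 higher and 3 to 5 lower at an unadjusted p below 0.05. With the letter as a block limma called 0 of the 26, with 3 higher and 4 lower at an unadjusted p below 0.05. Over all 18193 genes the block called 143 higher and 6 lower.

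Of 25 other cytoskeletal genes, 5 were called higher and 3 lower as deposited, and the median was -0.07. The balance turned with the scaling, at 2 higher and 7 lower with median centring and 21 higher and 0 lower with poly-A scaling. It turned over all 18193 genes too, at 951 higher and 1786 lower, and 10531 and 46. The turn is therefore not particular to this list. Without 1 array, 1 to 3 were called higher and 0 to 2 lower. With the letter as a block 0 were called, with 6 higher and 7 lower at an unadjusted p below 0.05. Over all genes, 549 to 928 were called higher and 101 to 307 lower without 1 array, and 143 and 6 with the block. Tpm1, a tropomyosin that muscle also expresses strongly, changed by 3.69, Myl9 by 1.57 (limma adjusted p = 0.0483) and Mylk by 1.31, and all passed the test. With the mean of all probe sets of a gene, Tpm1 was 1.88 and still called, while Myl9 (limma adjusted p = 0.0513) and Mylk at 0.94 (0.0797) were not. Vasp, an actin regulator, fell by 0.95 on the log2 scale (limma adjusted p = 0.0151), but gave 0.075 after scaling to the poly-A controls. The remaining calls, named after their values were seen, were Tuba8 at 0.86, Tuba4a at 0.55, Was at -0.84 and Wipf1 at -0.76.

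Transcription factors of the lineage gave 0 calls higher and 1 lower among 20 by limma, with 1 higher and 8 lower at an unadjusted p below 0.05 and a median of -0.20. Of all genes, 7.92% were called higher and 4.02% lower as deposited. Median centring gave 0 higher and 8 lower in the list, and poly-A scaling 12 higher and 0 lower. Over all 18193 genes these were 951 and 1786, and 10531 and 46, so the poly-A counts were near those of any genes. The call was Gata2, which fell by 0.61 on the log2 scale (limma adjusted p = 0.0429), but gave 0.38 after scaling to the poly-A controls. The Gata2 call was lost with the letter as a block, without any 1 array and with a pseudocount of 1. With the mean of all its probe sets Gata2 was -0.55 and not called (limma adjusted p = 0.0636). Without central C, 1 gene of the list was called higher. Over all genes the block called 6 lower, and leaving out 1 array 101 to 307. Zfpm1, as deposited, was lower in the same arrays in which 8 of 12 receptor genes of the lineage were called higher.

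**Figure D5:**
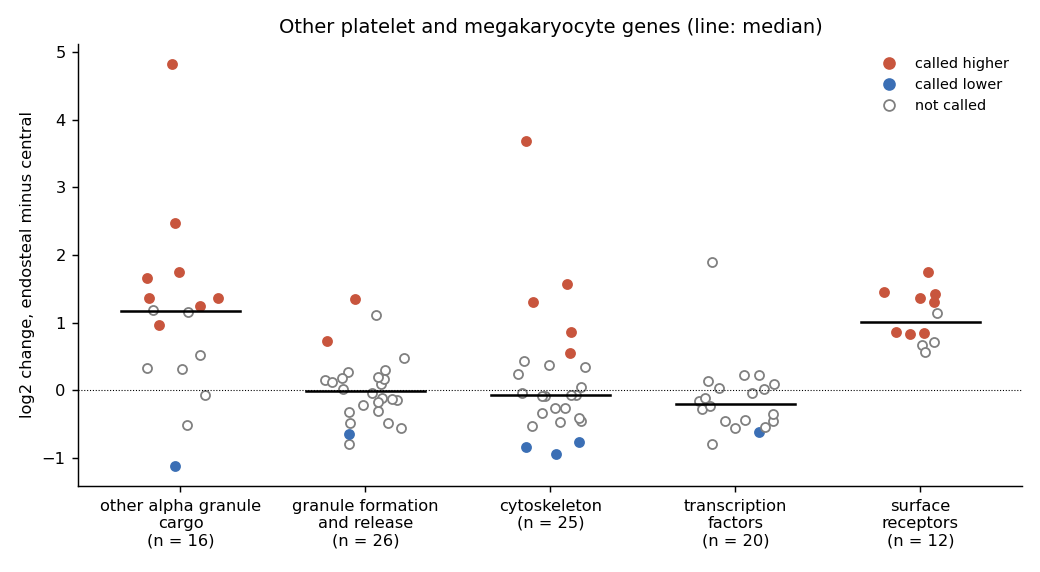
Log2 change of every measured gene in the 5 other platelet and megakaryocyte lists, as deposited, with called genes marked and the median of each list as a line. Medians are 1.17 for cargo, 1.00 for surface genes, -0.01 for granule release, -0.07 for the cytoskeleton and -0.20 for the transcription factors.

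Signals of other cell types also differed between regions. Markers of neutrophils, which also make Plek, had a summed signal of 377014 to 416342 on central and 576245 to 592038 on endosteal arrays; 4 of 10 were called higher, including S100a9 at 0.82 and S100a8 at 0.55 (-0.11 after quantile normalization), and 1 lower, Cxcr2 at -1.45. With quantile normalization or median centring limma called 0 of them higher, with 2 and 3 at an unadjusted p below 0.05, and with the letter as a block 0, with 7. Over all 18193 genes these called 1162, 951 and 143 higher. With the mean of all probe sets of each gene 2 markers were called higher, and S100a8 was not (limma adjusted p = 0.0568). Without 1 array 0 were called higher, except 2 without endosteal A. The lower call of Cxcr2 was lost with the letter as a block and without any 1 array. It was also lost with poly-A scaling, where 9 of 10 were called higher, against 10531 of 18193 genes. Monocyte and macrophage markers summed to 67938 to 76134 and 92471 to 100249, with 4 of 11 called higher and 1 lower; the brightest, Lyz2 at 0.33 and Csf1r at 0.37, were not called, and Lyz2 was -0.16 after quantile normalization. Endothelial markers summed to 1783 to 2511 and 5474 to 5796, with 7 of 10 called higher, Esam at 1.46 among them, while Eng at 0.59 was not called. Fibroblast and perivascular markers summed to 1526 to 1991 and 14725 to 21546, with 8 of 10 called higher, Dcn at 4.80 and Rgs5 at 3.93 among them. With the letter as a block, 1 monocyte and macrophage, 1 endothelial and 2 fibroblast and perivascular markers were called higher. Over all 18193 genes the block called 143 higher.

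Erythroid cells also express Zfpm1. Their 9 markers summed to 79564 to 94232 on central and 51391 to 76045 on endosteal arrays, with a median of -0.39 and 1 called lower, Sptb at -0.65. Slc4a1 gave -0.08 and Alas2 -0.81, neither called. With poly-A scaling the erythroid median was 0.52, with 2 called higher and 0 lower. That scaling put the median of all genes at 0.97, against 0.10 as deposited, and called 10531 of 18193 higher and 46 lower. The erythroid median lay below that of all genes under either scaling, so only its sign depended on the scaling. The Sptb call was lost with the letter as a block and without any 1 array. It was also lost with a pseudocount of 1, quantile normalization and the mean of all probe sets. Mast cell and basophil markers summed to 9395 to 11337 and 7723 to 8116, with 1 of 7 called lower, Fcer1a at -1.01. Mcpt8 at -0.46 and Hdc at -0.11 were not called. Their list had a median of -0.41 as deposited and 0.56 with poly-A scaling, with 3 called higher there. Each of these medians lay below that of all genes under the same scaling. B cell markers summed to 14359 to 21752 and 4934 to 9079, with 4 of 7 called lower, Cd79b at -1.26 and Ms4a1 at -1.62 among them. With poly-A scaling the B cell median was -0.24 instead of -1.26 and limma called 0 of 7, also 0 at an unadjusted p below 0.05. Over all 18193 genes that scaling gave 46 lower calls, and 66 at an unadjusted p below 0.05, so lower calls were rare throughout. The B cell median stayed below the 0.97 of all genes. Without 1 array 0 or 1 B cell marker was called lower, except 4 without endosteal C, and with the letter as a block 1. The part of any of these cell types in the members' changes was not tested.

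The genes nearest to 4 of the members were sought among 9095 genes, by the root mean square difference between centred log2 profiles over the 6 arrays. Nearest to Pf4 were Plvap at 0.099, Gucy1a1 at 0.114 and Mmrn1 at 0.116, where the median gene was at 1.02. Plvap, an endothelial gene, changed by 1.89, the same as Pf4. Nearest to Tubb1 were Tbc1d19 at 0.051, Itga2b, the platelet integrin chain, at 0.064, and Slc29a1 at 0.075, with a median of 0.53. For Plek they were Tsn, Caprin1 and Cenph at 0.043 to 0.048, with a median of 0.35. For Zfpm1 they were Itpr2, Ccdc88c and Ccl6 at 0.054 to 0.058, with a median of 0.51. With 6 arrays in 2 regions, a close profile mostly means a like change between regions.

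Scaling sets where 0 lies. The deposited signals put the median change of all genes at 0.10, quantile normalization at 0.02, median centring at -0.16 and scaling to the poly-A controls at 0.97. The 24 poly-A control probe sets lay 0.32 to 0.70 above their overall mean on central arrays and 0.45 to 0.58 below it on endosteal arrays. Relative to the median gene under that scaling, the change was 1.95 for Pf4, 1.50 for Rab27b, 1.26 for Ppbp, 0.88 for Tubb1, 0.55 for Plek, 0.12 for F5, -0.63 for Nbeal2 and -0.90 for Zfpm1. With median centring, 951 genes were called higher and 1786 lower, against 1441 and 731 as deposited, and 10531 and 46 with poly-A scaling.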

How the data were processed

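Affymetrix arrays measured biotin-labelled cRNA, 3 central and 3 endosteal, grouped by the labels. The deposited values are linear intensities, 1 per probe set; the authors' summarising software (and genome build) is not given in the sources used here. Of 45101 probe sets, 64 were controls, 34945 named 1 gene by the platform annotation, 932 several, and 9160 were unnamed here; 34741 of the 34945 were found in RefSeq. Each gene was represented by its brightest 1-gene probe set. Between 15.9% and 20.1% of signals per array were below 16; 3 arrays a group limit the precision.

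Values were fitted as log2(signal + 16) with limma 3.58.1 in R 4.3.3, two-sided, and tested on simulated data. The study's design text compares averages, so no block was used. Regions came from the same 3 mice, so the letter was tried as a block; deviations of same-letter arrays correlated at 0.05, 0.04 and 0.01 over all genes for A, B and C. Among genes brighter than the median gene they were 0.25, 0.12 and 0.08; the consensus correlation was 0.099. Alternatives were pseudocounts of 1 and 64, other scalings, a level filter, an intensity trend, the mean of all probe sets and each array left out. Letter as a random block, and list counts per setting, were chosen after seeing the data.

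Named were all members, up to 4 called genes per pathway list with the largest change, the 2 brightest markers per cell type, and the 3 nearest profiles of 4 members; others named were chosen after their values were seen. Members and lists were chosen with earlier results of these data known. The Rab27b start is not shown.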

Additional observations from a re-analysis of the deposited data

How the results depend on the processing

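By limma, 2 member genes were called higher and 1 lower, and 6 member probe sets higher and 2 lower. Genes called higher became 4 with a pseudocount of 64 and 6 with poly-A scaling. They became 5 among genes above the median level, 5 with an intensity trend, and 0 to 2 with 1 array left out. Over all 18193 genes, calls higher were 1856, 10531 and 2215 with that pseudocount, poly-A scaling and the trend, against 1441 as deposited. Above the median level, 1670 of 9096 genes were called higher, and 549 to 928 genes with 1 array left out. Genes called lower became 0 with poly-A scaling, 2 above the median level and 2 with the trend. They became 2 with the mean of all probe sets, and 0 to 1 with 1 array left out. Over all genes, calls lower were 46 with poly-A scaling, 1693 with the trend, 497 with that mean and 101 to 307 without 1 array. Above the median level, 1722 of the 9096 were called lower. Probe sets called higher became 1 with a pseudocount of 1, 12 with poly-A scaling, and 0 to 1 with 1 array left out. Those called lower became 0, 0 and 0, and 4 with the trend. Over all 45037 probe sets, 857, 19954 and 210 to 868 were called higher, in the same order. Called lower were 232, 100 and 5 to 181, and 2913 with the trend. At an unadjusted p below 0.05, limma gave 5 genes higher and 2 lower, and 9 probe sets higher and 4 lower. Over all features it gave 3253 and 2061 of 18193 genes, and 6007 and 4244 of 45037 probe sets. Changes of named genes that turned from below to above 0 under poly-A scaling were Nbeal2 at 0.33, Zfpm1 at 0.069, its probe set 1423603_at at 0.070, Unc13d at 0.37, Vasp at 0.075, Gata2 at 0.38, Slc4a1 at 0.94, Alas2 at 0.22, Mcpt8 at 0.56 and Hdc at 0.91. Under quantile normalization S100a8 was -0.11 and Lyz2 -0.16, and under median centring F5 was -0.20. The cause was not tested. Over 16 alternatives Pf4 ranged from 1.59 to 2.91 and was called in 12, Rab27b from 1.17 to 2.47 in 11, Zfpm1 from -1.21 to 0.07 in 11, Ppbp from 0.89 to 2.23 in 5, Plek from 0.23 to 1.51 in 5, Tubb1 from 0.56 to 1.84 in 3, Nbeal2 from -0.94 to 0.33 in 3 and F5 from -0.20 to 1.08 in 1.

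With the letter as a replicate block, limma called 0 member genes higher and 0 lower, and 0 probe sets in either direction; at an unadjusted p below 0.05 there were 5 and 2 genes, and 9 and 4 probe sets. Over all genes the block called 143 higher and 6 lower, against 1441 and 731. Among all 45037 probe sets the block called 0 higher and 0 lower, against 1444 and 582 without it. The absence of calls among the members' probe sets therefore says nothing about the members in particular. As a random block, chosen after seeing the data, the letter gave 3 and 1 member genes and 6 and 3 probe sets. Over all features it gave 1697 and 945 genes, and 1823 and 874 probe sets.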
